A study of Homo sapiens with 9 samples.

Results

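The 36 genes described here act in mitosis and in the G2/M phase, the stretch of the cell cycle that leads into it. They were taken by name from the 19257 rows of the deposited count table, and all 36 were found and were high enough to be tested. The RNA came from A549, a human lung adenocarcinoma cell line, in 9 libraries that form 3 groups of 3. The NC cells had received Lenti-CRISPR-V2 without an insert and carry the genotype label WT. OGT_KO cells had received the same vector built to knock out OGT, the enzyme that attaches O-linked N-acetylglucosamine to proteins. TR11B_KO cells had received the version directed at TR11B, the UniProt entry name of osteoprotegerin, taken here as the gene TNFRSF11B. All groups shared the vector backbone and growth in DMEM with fetal bovine serum. The sources used here do not give guide sequences or say whether each knockout was a clone or a pool, so an effect of the guide or of one clone and an effect of losing the gene cannot be told apart. The titles call the samples biological replicates, yet whether they were separate cultures is not stated. The p-values therefore rest on the spread among the 3 libraries of each group, and part or all of that spread may be technical.

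Cells enter mitosis when cyclin B binds CDK1 and the phosphatases of the CDC25 family switch the complex on. Polo and Aurora kinases, the spindle checkpoint and the anaphase promoting complex, a ubiquitin ligase, then order spindle assembly, chromosome separation and division of the cell. Many of these genes are transcribed late in the cycle, with the MuvB complex, B-MYB and FOXM1 acting through CHR elements and NF-Y acting through CCAAT boxes. In RNA from a whole culture, fewer cells in G2 or mitosis and less RNA of these genes per cell cannot be told apart.

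The promoters of 5 members are printed because these genes carry the contrasts described below. CCNB1 and CCNB2 were lower in both knockouts. BUB1 and MAD2L1, from the same checkpoint, changed in opposite directions in TR11B_KO, and MKI67 changed in opposite directions in the 2 knockouts. Each line gives 280 bases, from 250 before the annotated start to 30 after it, from RefSeq on GRCh38.p14 and written 5′ to 3′ on the gene's strand. Capitals mark CHR letters (TTTGAA or TTCGAA, or TTCAAA on the other strand) and CCAAT letters (CCAAT, or ATTGG on the other strand). CCNB1 lies at chr5:69166900-69167179 (+), CCNB2 at chr15:59104896-59105175 (+), BUB1 at chr2:110678034-110678313 (-), MAD2L1 at chr4:120066819-120067098 (-) and MKI67 at chr10:128126394-128126673 (-).
CCNB1: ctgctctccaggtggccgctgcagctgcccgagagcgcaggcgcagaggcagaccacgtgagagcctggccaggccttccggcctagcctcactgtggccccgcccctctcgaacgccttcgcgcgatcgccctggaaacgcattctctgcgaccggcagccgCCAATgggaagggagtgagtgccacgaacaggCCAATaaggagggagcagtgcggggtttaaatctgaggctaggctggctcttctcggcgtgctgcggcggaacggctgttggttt
CCNB2: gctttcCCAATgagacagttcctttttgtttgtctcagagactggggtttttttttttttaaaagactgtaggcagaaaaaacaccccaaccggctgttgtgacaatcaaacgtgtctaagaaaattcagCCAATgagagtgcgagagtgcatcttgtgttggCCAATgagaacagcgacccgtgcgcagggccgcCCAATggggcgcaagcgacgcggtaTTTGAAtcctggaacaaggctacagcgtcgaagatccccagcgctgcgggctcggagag
BUB1: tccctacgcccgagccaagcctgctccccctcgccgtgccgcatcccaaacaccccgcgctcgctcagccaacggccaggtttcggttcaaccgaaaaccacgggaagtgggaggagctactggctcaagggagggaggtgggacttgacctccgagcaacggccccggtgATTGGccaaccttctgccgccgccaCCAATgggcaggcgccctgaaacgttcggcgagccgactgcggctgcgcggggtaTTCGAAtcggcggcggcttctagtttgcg
MAD2L1: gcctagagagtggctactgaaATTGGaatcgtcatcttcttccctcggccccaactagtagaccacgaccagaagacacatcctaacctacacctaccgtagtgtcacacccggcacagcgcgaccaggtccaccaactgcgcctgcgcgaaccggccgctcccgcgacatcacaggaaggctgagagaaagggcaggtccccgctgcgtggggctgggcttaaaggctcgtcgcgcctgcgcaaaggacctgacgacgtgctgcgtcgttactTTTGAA
MKI67: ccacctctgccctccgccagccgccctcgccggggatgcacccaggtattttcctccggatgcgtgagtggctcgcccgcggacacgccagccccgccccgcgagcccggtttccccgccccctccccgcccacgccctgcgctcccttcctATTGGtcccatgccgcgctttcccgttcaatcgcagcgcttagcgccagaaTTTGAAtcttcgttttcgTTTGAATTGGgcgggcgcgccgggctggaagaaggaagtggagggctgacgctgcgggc
CCNB2 held 4 CCAAT matches and a CHR match, BUB1 held 2 CCAAT matches with a CHR match at its start, and CCNB1 held 2 CCAAT matches and no CHR letters in this window. In MKI67 the capitals TTTGAATTGG are a CHR match and a CCAAT match that share a base. MAD2L1 held a CHR match after its start and a CCAAT match far upstream.

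Of the 36 members, 30 had a promoter in the RefSeq table; TTK, TPX2, AURKA, UBE2C, BIRC5 and BUB3 had none listed. Within the full windows of 300 bases (250 before the start, 50 after), CHR letters were present in 21 of 30 members (70.0%), against 16.6% of 27305 gene promoters of the same length. CCAAT letters were present in 25 (83.3%) against 35.7%, and both motifs in 19 (63.3%) against 6.58%. Among the promoters of genes with a count in these libraries, 4.71% held both. Where a gene had several listed starts the first was used; counting any listed start gave 20 members with both (66.7%) against 9.02% of all genes. Only the exact letters given above were searched, so other spellings of either element were not counted. The AURKB window (chr17:8210176-8210475, -) lies inside the gene's annotated span of 8204731 to 8210575, so it does not cover the outermost start. A match is a description of the letters and shows no bound factor.

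**Figure D1:**
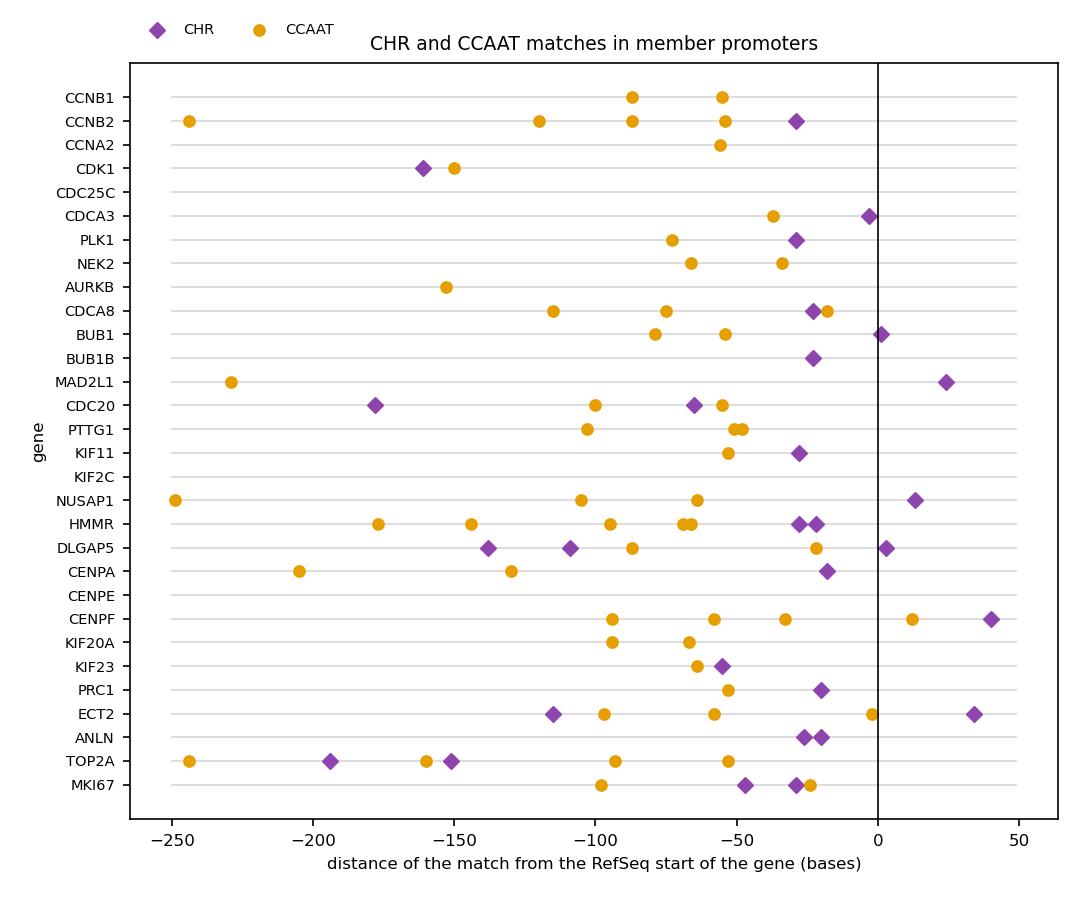
Positions of CHR and CCAAT letters in the promoters of the 30 members with a listed window, as distance in bases from the annotated start (x axis), 1 gene per row. CHR marks lie mostly close to the start and CCAAT marks mostly upstream of it, and 19 of the 30 rows carry both.

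The targeted genes were examined first. The 3 NC libraries held 1239, 1143 and 967 OGT reads, and the OGT_KO libraries held 927, 1255 and 960. The groups overlapped, and the log2 fold change of -0.17 ± 0.21 (SE) did not pass edgeR's quasi-likelihood test (Benjamini-Hochberg adjusted p = 0.607). The TR11B_KO libraries held 716, 356 and 484, and OGT was lower there than NC by a log2 fold change of -0.99 ± 0.21 (adjusted p = 0.00393). Reads of TNFRSF11B were too few to be tested, with 13, 15 and 3 in the NC libraries, 1, 0 and 0 in those of OGT_KO and 3, 1 and 0 in those of TR11B_KO. These counts do not check the labels, and directions below belong to the libraries labelled OGT_KO and TR11B_KO.

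Library totals ran from 38327508 to 42245970 counts. TR11B_KO replicate 2 stood apart, with a TMM scaling factor of 0.784 against 0.951 to 1.16 in the other 8 libraries and the fewest genes with a count (14128 against 14581 to 14954). Keratins 8 and 18, markers of simple epithelium, were among the abundant genes, at 2720 to 12140 CPM (reads of a gene per 1e+06 after TMM scaling), while CDH1 had no count in any library, EPCAM had at most 2 and KRT19 at most 17. The summed level of the 5 epithelial markers was 16910 to 18950 CPM in NC, 7691 to 9755 in OGT_KO and 13580 to 21650 in TR11B_KO, and its part in the results below was not tested. The 2 alveolar type 2 markers in the table summed to at most 0.290 CPM, the 4 fibroblast markers to at most 0.871 and the 3 endothelial markers to at most 0.486. Leukocyte markers summed to 2.87 to 6.50 CPM, nearly all of it CD68.

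Against NC, TR11B_KO had lower RNA of 19 of the 36 members, with the largest falls in BUB1, CCNB1 and HMMR, and OGT_KO had a mixed pattern, with CCNB1, CCNB2 and KIF2C lower and MKI67, CENPF, ECT2, HMMR and TOP2A higher. In TR11B_KO, 19 of the 36 members fell (52.8%) and 1 rose (2.78%), where 14.3% of all 12574 tested genes were lower and 13.2% were higher at an adjusted p under 0.05. The median log2 fold change of the members was -0.69 against -0.01 for all tested genes. In OGT_KO, 3 members fell (8.33%) and 5 rose (13.9%), where 10.1% of all tested genes were lower and 8.26% higher, so the members' shares were near the background. Their median was -0.01 against 0.03 for all genes, from -1.05 for CCNB1 to 1.36 for CENPE. When scaled by library totals alone, 5 members were higher and 1 (PLK1) lower in OGT_KO, where 10.9% and 7.08% of all tested genes were. The median of all genes then moved to 0.15 in OGT_KO and to -0.15 in TR11B_KO, where the members' median was -0.80.

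The count of falls in TR11B_KO ranged from 11 to 24 when single libraries were left out. Leaving out NC replicate 1 gave 12, and leaving out NC replicate 2 gave 11, where 7.79% and 7.45% of all tested genes were lower. Leaving out TR11B_KO replicate 2, the library that stood apart, gave 24 falls and 1 rise, where 17.2% of all tested genes were lower. The OGT_KO counts rested on more choices. They were 11 higher and 12 lower in a fit of OGT_KO and NC only, where 19.6% and 22.1% of all genes were called, 8 and 10 without TR11B_KO replicate 2 (16.3% and 19.1% of all genes), and 5 and 8 without TR11B_KO replicate 1 (12.3% and 13.8%). No member was called lower, and 1 to 4 were called higher, without NC replicate 1, NC replicate 2 or any 1 of the OGT_KO replicates. In those fits 5.05% to 5.33% of all tested genes were lower and 3.29% to 4.51% higher. Without NC replicate 3, 1 member was lower and 5 higher, where 6.76% and 4.48% of all tested genes were.

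Of the 19 members that fell in TR11B_KO, 10 passed in all 19 alternatives run, namely CCNB1, CCNB2, CDCA3, BUB1, UBE2C, KIF2C, TPX2, HMMR, KIF23 and ANLN. In a fit of TR11B_KO and NC only, AURKA, KIF20A, BIRC5, DLGAP5, CDCA8 and PLK1 were not called (adjusted p 0.0602 to 0.0939). PLK1 was also lost with RLE scaling (0.0531), and CDCA8 with library totals (0.0512) and with limma on log2 FPKM plus 1 (0.0527). In OGT_KO, the falls of CCNB1, CCNB2 and KIF2C were not called with library totals (0.0911, 0.113 and 0.103) or with limma on FPKM (0.0750 to 0.135), and TOP2A was not called with the length offset (0.0539).

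Leaving out a TR11B_KO library also added calls. Without replicate 2, CDC20 (-0.82, adjusted p = 1.69e-05), AURKB (-0.54, 0.00258), KIF11 (-0.88, 0.0104), CENPF (-0.59, 0.0285) and TTK (-1.22, 0.00965) were called lower in TR11B_KO by their log2 fold change. Without replicate 1, CCNA2 (-0.70, 0.0246), NUSAP1 (-1.43, 0.00589) and PRC1 (-0.78, 0.0427) were. In OGT_KO, whose own libraries were unchanged in that fit, CENPE, KIF11 and NUSAP1 were called higher, and BIRC5, CDC20, CDC25C, CENPA, KIF20A, PLK1 and PTTG1 lower, without TR11B_KO replicate 2. Among the falls called in TR11B_KO, those of AURKA, KIF20A and CDCA8 shrank by more than 1.5 times without replicate 2, to 0.74, 0.67 and 0.40 on the log2 scale, and still passed (adjusted p = 0.00277, 0.00144 and 0.0369).

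The NC libraries served both comparisons, so the 2 sets of calls share those samples. The share of all tested genes with each combination of calls was not counted, so the combinations below only describe the members. CCNB1, CCNB2 and KIF2C were lower in both, and HMMR and MKI67 were higher in OGT_KO and lower in TR11B_KO. CENPF, ECT2 and TOP2A were higher in OGT_KO and not called in TR11B_KO. In TR11B_KO alone, 14 members were called lower and MAD2L1 higher. Whether they differ between the knockouts is tested below only by setting the knockouts against each other. In that test CDC25C, PLK1, AURKA, BIRC5, CDCA8 and KIF20A did not pass, so their falls were not shown to be particular to TR11B_KO. The other 13 members were called in neither.

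**Figure D2:**
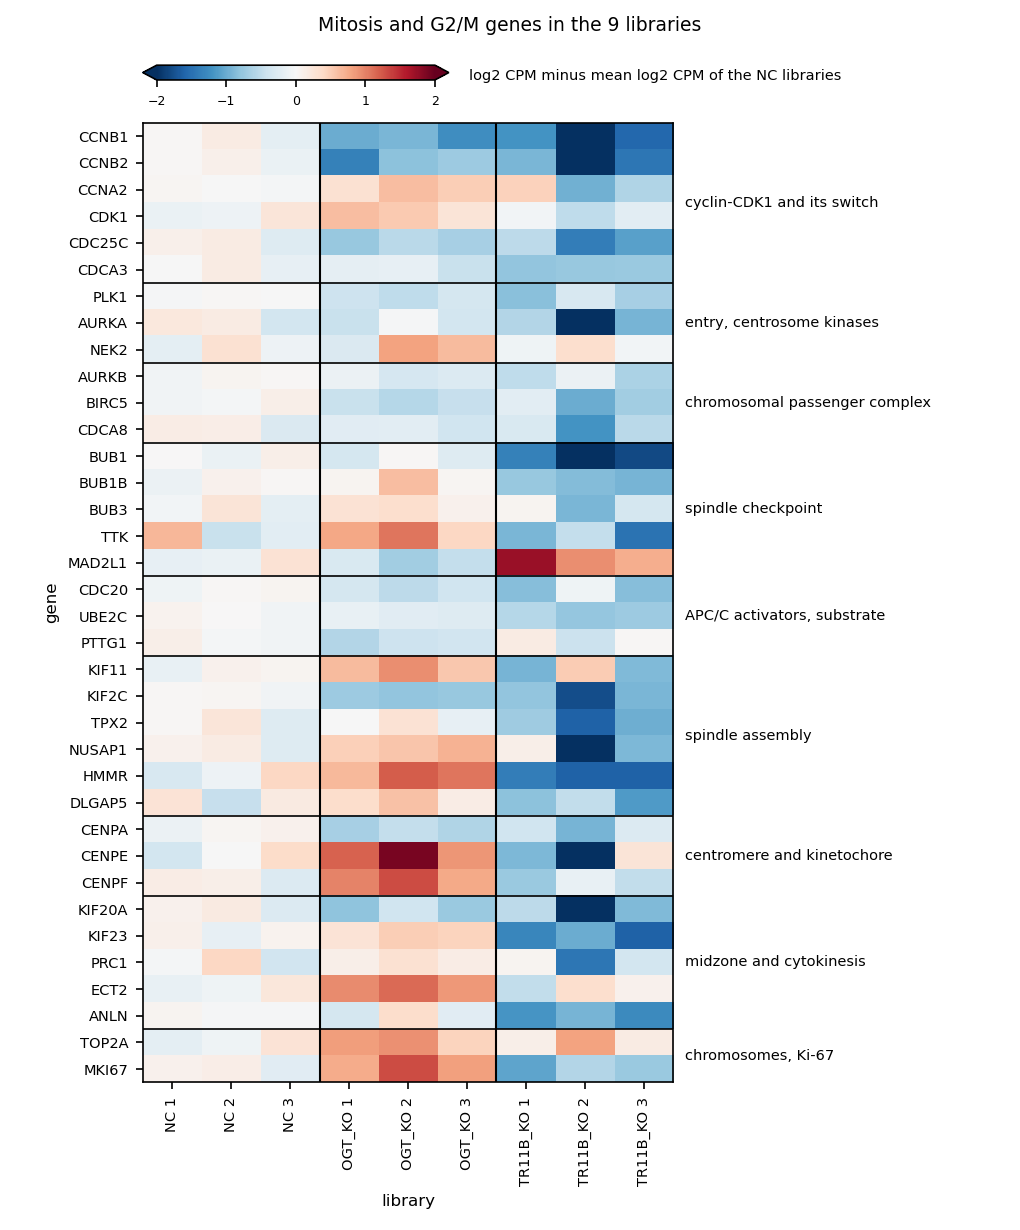
Each cell is the log2 CPM of 1 member (rows, grouped by role) in 1 library (columns) minus the mean log2 CPM of the 3 NC libraries; red is higher, blue is lower, and the colours stop at 2 log2 units either way. TR11B_KO columns are mostly blue with MAD2L1 red, and OGT_KO columns are red for some roles and blue for others.

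Counted per library, 27, 30 and 29 members in TR11B_KO replicates 1 to 3 lay below all 3 NC libraries, and 3, 5 and 1 lay above them. The share of all tested genes below all NC libraries was 37.9%, 44.2% and 41.6% in those libraries, and the share above was 38.6%, 38.6% and 34.2%. In OGT_KO, 18, 14 and 17 members lay below and 14, 18 and 12 above, where 36.6%, 35.8% and 36.7% of all tested genes lay below and 37.2%, 40.1% and 36.8% above. All 3 TR11B_KO libraries lay below all 3 NC libraries for 23 members (63.9%) and above them for 1, against 21.9% and 19.0% of all tested genes, and all 3 OGT_KO libraries lay below for 14 (38.9%) and above for 11 (30.6%), against 25.6% and 24.2%. Summed over the members, RNA was 3630 ± 115 CPM in NC, 2807 ± 50.4 in OGT_KO and 2277 ± 134 in TR11B_KO (SD, n = 3 each), and none of the libraries of 1 group overlapped those of another. That sum is carried by the abundant members CDC20, PLK1, BIRC5, KIF2C, UBE2C and CCNB1. Replicates of the members varied about as much as those of other genes, with a median SD of log2 CPM of 0.43 in TR11B_KO, against 0.44 for all genes, 0.20 and 0.20 in NC, and 0.18 and 0.20 in OGT_KO. Since the 3 groups share 1 estimate of spread per gene, the p-values of OGT_KO against NC also carry the wider spread of TR11B_KO.

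In length-scaled units (FPKM), the members spanned a wide range in NC. CDC20, which activates the anaphase promoting complex, was highest at 575 ± 26.4 FPKM (SD, n = 3), then PLK1 at 276 ± 3.94 and UBE2C at 213 ± 10.3. CCNB1 (128 ± 15.3), AURKB (123 ± 5.43) and BIRC5 (122 ± 8.71) followed and lay within each other's spread. At the other end were TTK (0.561 ± 0.245), HMMR (0.510 ± 0.14) and CENPE (0.0850 ± 0.0218), a long kinetochore kinesin. CDC20, PLK1 and UBE2C held the top 3 places by mean FPKM in all 3 groups.

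The cyclin and CDK1 switch was lower in TR11B_KO for 4 of 6 members and in OGT_KO for 2. CCNB1, which encodes the cyclin that drives entry into mitosis, was at 259, 288 and 225 CPM in the NC libraries, 129, 136 and 108 in those of OGT_KO and 112, 37.6 and 86.3 in those of TR11B_KO. All 6 knockout libraries lay below all NC libraries, and TR11B_KO replicate 2 was lowest. The log2 fold change was -1.71 ± 0.29 in TR11B_KO (adjusted p = 0.00121) and -1.05 ± 0.29 in OGT_KO (adjusted p = 0.0228).

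CCNB2, the second B-type cyclin, was at 13.4, 14.2 and 12.1 CPM in the NC libraries, 5.16, 7.52 and 7.98 in those of OGT_KO and 7.05, 3.19 and 4.84 in those of TR11B_KO. Again no knockout library reached the NC range, with log2 fold changes of -1.39 ± 0.28 in TR11B_KO (adjusted p = 0.00298) and -0.94 ± 0.28 in OGT_KO (adjusted p = 0.0297). Leaving out single libraries ended the OGT_KO call for CCNB1 without NC replicate 1 or 2 or any OGT_KO replicate (adjusted p 0.0682 to 0.0945), and for CCNB2 without any of the 6 libraries (0.0589 to 0.139). Both passed by far more in a fit of OGT_KO and NC only (adjusted p = 4.52e-09 and 3.28e-05). Without TR11B_KO replicate 2 they also passed (2.04e-07 and 0.000348). CDC25C, the phosphatase that switches CDK1 on, was at 15.6, 16.1 and 12.0 CPM in NC and 10.0, 5.55 and 6.79 in TR11B_KO, below NC in every library. It fell by 0.96 ± 0.24 on the log2 scale (adjusted p = 0.0102), a call lost without NC replicate 2 (adjusted p = 0.0524). CDCA3, which triggers entry by promoting loss of the CDK1 inhibitor WEE1, fell by 0.77 ± 0.17 in TR11B_KO (adjusted p = 0.00502).

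CDK1 itself and CCNA2, the cyclin of S and G2, were called in neither knockout. CDK1 was at 5.57, 5.70 and 7.23 CPM in the NC libraries, 9.44, 8.78 and 7.33 in those of OGT_KO and 5.90, 4.29 and 5.30 in those of TR11B_KO, so that OGT_KO lay just above NC and TR11B_KO overlapped it. CCNA2 had log2 fold changes of 0.47 ± 0.30 in OGT_KO (adjusted p = 0.295) and -0.23 ± 0.30 in TR11B_KO (adjusted p = 0.613).

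Among the kinases of mitotic entry and the centrosome, PLK1 and AURKA fell in TR11B_KO. PLK1, the Polo-like kinase, was at 582, 602 and 588 CPM in the NC libraries, 441, 414 and 462 in those of OGT_KO and 333, 474 and 372 in those of TR11B_KO. Both knockouts lay below NC, by a log2 fold change of -0.59 ± 0.17 in TR11B_KO (adjusted p = 0.0191) and -0.43 ± 0.17 in OGT_KO, which did not pass (adjusted p = 0.0896). The OGT_KO fall passed with library totals (adjusted p = 0.0455) and limma on log2 FPKM plus 1 (0.0350) or plus 0.1 (0.0365). With DESeq2 (0.0818) and RLE scaling (0.121) it did not. The TR11B_KO call of PLK1 was lost without NC replicate 1 or 2 or TR11B_KO replicate 1 or 3 (adjusted p 0.0555 to 0.0728). AURKA, the spindle pole kinase, had 29.7, 29.0 and 20.0 CPM in NC and 17.2, 5.38 and 13.5 in TR11B_KO. All 3 TR11B_KO libraries were below NC, with replicate 2 far lower than the others, and the fall of 1.12 ± 0.33 on the log2 scale (adjusted p = 0.0218) did not pass without NC replicate 1 or 2 (0.0775 and 0.0791). NEK2, a centrosome kinase, was not called in either.

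The chromosomal passenger complex, which corrects faulty attachments of chromosomes to the spindle, had 2 of 3 members lower in TR11B_KO. BIRC5, its survivin subunit, was at 305, 309 and 346 CPM in the NC libraries, 235, 215 and 231 in those of OGT_KO and 275, 160 and 197 in those of TR11B_KO. The knockout libraries were all below NC. The log2 fold change was -0.60 ± 0.19 in TR11B_KO (adjusted p = 0.0325) and -0.49 ± 0.19 in OGT_KO (adjusted p = 0.0901). CDCA8, the borealin subunit, fell by 0.65 ± 0.21 (adjusted p = 0.0376). Both TR11B_KO calls were lost on leaving out any of 6 single libraries, BIRC5 without any NC replicate, OGT_KO replicate 1 or 3 or TR11B_KO replicate 3 (adjusted p 0.0510 to 0.1), and CDCA8 without NC replicate 1 or 2, any OGT_KO replicate or TR11B_KO replicate 3 (0.0552 to 0.137). AURKB, the kinase of the complex, had a log2 fold change of -0.40 ± 0.17 in TR11B_KO and did not pass (adjusted p = 0.0968). Its fall passed with library totals (adjusted p = 0.00506), limma on log2 FPKM plus 1 (0.00521) and the length offset (0.0291). With DESeq2 (0.187) and RLE scaling (0.206) it did not.

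The spindle checkpoint, which holds anaphase back until all chromosomes are attached, split in TR11B_KO. BUB1, a checkpoint kinase, was at 14.6, 13.4 and 15.9 CPM in the NC libraries, 11.5, 14.8 and 12.2 in those of OGT_KO and 5.71, 2.45 and 4.17 in those of TR11B_KO. OGT_KO overlapped NC, while every TR11B_KO library was far below both. BUB1 had the largest fall of the 36 in TR11B_KO, a log2 fold change of -1.83 ± 0.28 (adjusted p = 0.000546).

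MAD2L1, which encodes the checkpoint protein MAD2 that binds CDC20, went the other way. Its level was 7.43, 7.65 and 10.2 CPM in the NC libraries, 6.78, 5.13 and 6.00 in those of OGT_KO and 27.5, 15.9 and 13.8 in those of TR11B_KO. Every TR11B_KO library was above all 6 others, replicate 1 most of all. The log2 fold change was 1.18 ± 0.27 in TR11B_KO (adjusted p = 0.00623) and -0.50 ± 0.27 in OGT_KO (adjusted p = 0.215). MAD2L1 was the only member called higher in TR11B_KO, and that call held in all 19 alternatives run.

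BUB1B, the checkpoint protein BUBR1, fell by 0.86 ± 0.23 in TR11B_KO (adjusted p = 0.0134), a call lost without NC replicate 2 (adjusted p = 0.06). TTK, the kinase that starts checkpoint signalling, was at 3.06, 1.41 and 1.66 CPM in the NC libraries, 3.30, 4.03 and 2.57 in those of OGT_KO and 1.02, 1.39 and 0.692 in those of TR11B_KO, with a log2 fold change of -0.99 ± 0.36 in TR11B_KO that did not pass (adjusted p = 0.0551). BUB3 was called in neither knockout.

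Of the 3 genes around the anaphase promoting complex, only UBE2C was called. UBE2C, the ubiquitin-conjugating enzyme that serves the complex, was at 270, 261 and 246 CPM in the NC libraries, 232, 220 and 217 in those of OGT_KO and 173, 151 and 156 in those of TR11B_KO. The 3 groups did not overlap, and the fall in TR11B_KO was 0.69 ± 0.15 on the log2 scale (adjusted p = 0.00465). CDC20 was at 889, 957 and 971 CPM in the NC libraries, 739, 650 and 710 in those of OGT_KO and 520, 885 and 522 in those of TR11B_KO. TR11B_KO replicate 2 lay close to NC while the other 2 replicates were far lower, and the log2 fold change of -0.55 ± 0.20 did not pass (adjusted p = 0.0580). In FPKM, which TMM does not scale, replicate 2 was at 421 and the NC libraries at 545, 584 and 595. The fall passed with library totals (adjusted p = 0.00277), limma on log2 FPKM plus 1 (0.00328), the length offset (0.0193) and no low-count filter (0.0303). With DESeq2 (0.101) and RLE scaling (0.126) it did not. PTTG1, securin, has near-identical copies elsewhere in the genome, so its counts are uncertain, and it was not called.

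Spindle assembly genes were lower in TR11B_KO for 4 of 6 members, and HMMR and KIF2C were also called in OGT_KO, in opposite directions. KIF2C, the kinesin MCAK that takes microtubules apart, was at 302, 305 and 280 CPM in the NC libraries, 178, 171 and 175 in those of OGT_KO and 171, 86.4 and 156 in those of TR11B_KO. Both knockouts lay wholly below NC, by -1.10 ± 0.22 in TR11B_KO (adjusted p = 0.00261) and -0.76 ± 0.22 in OGT_KO (adjusted p = 0.0258) on the log2 scale. The OGT_KO call was lost on leaving out any of the 6 NC and OGT_KO libraries (adjusted p 0.0588 to 0.0939). It passed by far more in a fit of OGT_KO and NC only (adjusted p = 4.33e-07) and without TR11B_KO replicate 2 (7.98e-06).

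HMMR, which encodes the spindle protein RHAMM, was at 1.19, 1.39 and 1.99 CPM in the NC libraries, 2.34, 3.47 and 3.12 in those of OGT_KO and 0.571, 0.484 and 0.487 in those of TR11B_KO. The 3 groups did not overlap, OGT_KO being highest and TR11B_KO lowest. Its log2 fold change was 0.96 ± 0.30 in OGT_KO (adjusted p = 0.0369) and -1.56 ± 0.33 in TR11B_KO (adjusted p = 0.00384). The OGT_KO call did not pass without NC replicate 1 or 2 or any OGT_KO replicate (0.0538 to 0.163).

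TPX2, which activates Aurora A on the spindle, was at 146, 170 and 121 CPM in the NC libraries, 143, 176 and 129 in those of OGT_KO and 88.2, 46.9 and 73.1 in those of TR11B_KO. OGT_KO overlapped NC almost completely, and TR11B_KO was lower in all 3 libraries, by -1.07 ± 0.23 on the log2 scale (adjusted p = 0.00401). DLGAP5, a spindle-stabilising protein, fell by 0.83 ± 0.27 (adjusted p = 0.0340), a call lost without NC replicate 1 or 3, OGT_KO replicate 1 or TR11B_KO replicate 1 or 3 (0.0530 to 0.145). NUSAP1 and KIF11, a microtubule bundling protein and the bipolar spindle kinesin, were not called against NC.

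At the centromere and kinetochore, OGT_KO was higher for CENPF and no member was called in TR11B_KO. CENPF, a large kinetochore protein of G2 and mitosis, was at 10.3, 10.2 and 7.79 CPM in the NC libraries, 18.6, 23.1 and 15.9 in those of OGT_KO and 5.62, 8.42 and 6.66 in those of TR11B_KO. Every OGT_KO library lay above the other 6, while TR11B_KO overlapped NC. The rise in OGT_KO was 1.02 ± 0.23 on the log2 scale (adjusted p = 0.00821), and 0.87 without OGT_KO replicate 2 (adjusted p = 0.0527). CENPE had the largest OGT_KO value of the 36, 1.36 ± 0.51, from levels of 0.550, 0.706 and 0.920 CPM in NC and 1.61, 2.66 and 1.31 in OGT_KO, and did not pass (adjusted p = 0.0816). CENPA, the centromere's histone H3 variant, had a log2 fold change of -0.58 ± 0.22 in OGT_KO and -0.50 ± 0.22 in TR11B_KO and passed in neither (adjusted p = 0.0769 and 0.0960). Its OGT_KO fall passed in 5 of the 19 alternatives, among them DESeq2 (0.0315) and the length offset (0.0475). In TR11B_KO it passed in 1, the length offset (-0.84, adjusted p = 0.0123).

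**Figure D3:**
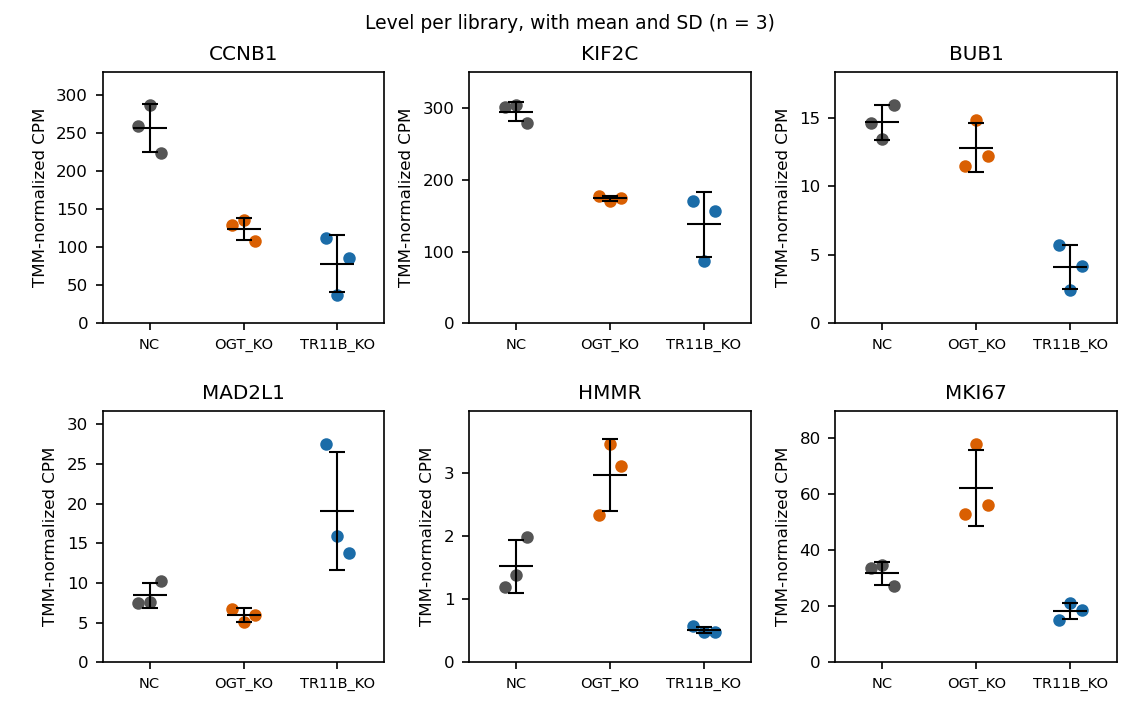
Levels in CPM (y axis, from 0) of selected members in the 9 libraries, 1 panel per gene; points are libraries, wide bars are group means and error bars are SD (n = 3). CCNB1 and KIF2C are lower in both knockouts, MKI67 and HMMR are highest in OGT_KO and lowest in TR11B_KO, and MAD2L1 is highest in TR11B_KO.

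In the midzone and cytokinesis group, 3 of 5 members fell in TR11B_KO and ECT2 rose in OGT_KO. KIF23, the kinesin of the centralspindlin complex, was at 7.19, 6.03 and 7.03 CPM in the NC libraries, 8.12, 9.46 and 9.17 in those of OGT_KO and 2.71, 3.39 and 2.20 in those of TR11B_KO. The 3 groups did not overlap. Its fall in TR11B_KO was 1.29 ± 0.23 on the log2 scale (adjusted p = 0.00145), and its OGT_KO value of 0.40 ± 0.22 did not pass (adjusted p = 0.220).

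ANLN, the scaffold of the contractile ring, was at 13.4, 12.7 and 12.7 CPM in the NC libraries, 10.1, 16.4 and 11 in those of OGT_KO and 5.67, 6.77 and 5.33 in those of TR11B_KO. TR11B_KO was below every other library, with a log2 fold change of -1.13 ± 0.23 (adjusted p = 0.00331). KIF20A, a kinesin of the midzone, was at 95.2, 101 and 74.3 CPM in NC and 62.1, 19.2 and 48.8 in TR11B_KO. Its fall of 1.06 ± 0.31 (adjusted p = 0.0230) was lost without NC replicate 1 or 2 (0.0700 and 0.0826).

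ECT2, the exchange factor that starts furrowing, was at 4.04, 4.24 and 5.24 CPM in the NC libraries, 8.58, 9.79 and 8.17 in those of OGT_KO and 3.17, 5.64 and 4.76 in those of TR11B_KO. OGT_KO stood clear of the other libraries, and TR11B_KO spanned the NC range. The rise in OGT_KO was 0.97 ± 0.25 on the log2 scale (adjusted p = 0.0144), a call lost without NC replicate 1 or 2 or OGT_KO replicate 2 (0.0664 to 0.0794). PRC1, which bundles midzone microtubules, was not called.

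TOP2A and MKI67 were both higher in OGT_KO. TOP2A, the topoisomerase that untangles sister chromatids, was at 28.0, 30.2 and 38.8 CPM in the NC libraries, 57.2, 60.5 and 43.6 in those of OGT_KO and 34.8, 56.1 and 35.9 in those of TR11B_KO. OGT_KO was above NC, and TR11B_KO overlapped both. Its log2 fold change in OGT_KO was 0.73 ± 0.22 (adjusted p = 0.0350), lost without NC replicate 1 or 2 or OGT_KO replicate 1 or 2 (0.123 to 0.154).

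MKI67, which encodes the proliferation marker Ki-67 of the chromosome surface, was at 33.6, 34.7 and 27.0 CPM in the NC libraries, 52.8, 77.8 and 56.0 in those of OGT_KO and 15.2, 21.0 and 18.8 in those of TR11B_KO. The 3 groups were fully separate. It rose by 0.97 ± 0.20 in OGT_KO (adjusted p = 0.00562), the one OGT_KO call that held in all 19 alternatives, and fell by 0.79 ± 0.21 in TR11B_KO (adjusted p = 0.0118). The TR11B_KO call was lost without NC replicate 1 or 2 (0.0538 and 0.0590), and with an offset for gene length the fall was 0.46 (adjusted p = 0.0932).

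**Figure D4:**
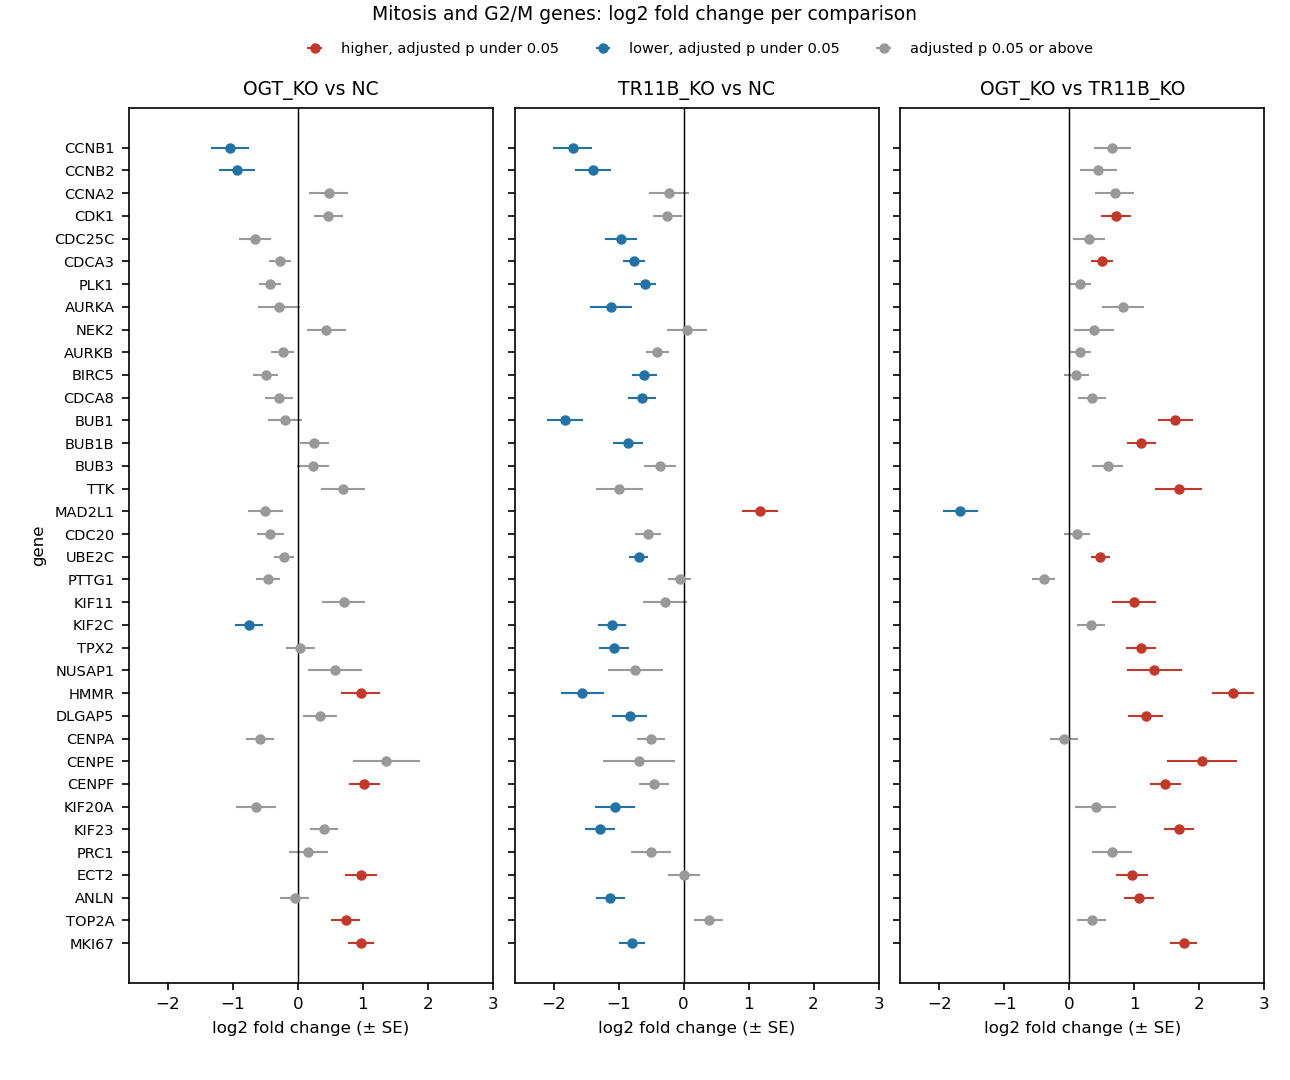
Log2 fold change of each member (x axis) with its standard error as bars, in the 3 comparisons; red and blue points passed at an adjusted p under 0.05 and grey points did not. The coloured points of the TR11B_KO panel are blue apart from MAD2L1, and those of OGT_KO against TR11B_KO are red apart from MAD2L1.

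When the knockouts were set against each other, OGT_KO was higher than TR11B_KO for 17 of 36 members (47.2%) and lower for MAD2L1 alone, where 16.7% of all tested genes were higher and 16.5% lower. The median of the members was 0.66 against 0.06 for all tested genes. All 3 OGT_KO libraries lay above all 3 TR11B_KO libraries for 20 members (55.6%) and below them for MAD2L1, against 24.6% and 20.3% of all tested genes. HMMR differed most, by 2.52 ± 0.33 on the log2 scale (adjusted p = 8.9e-05), then CENPE by 2.04 ± 0.54 (adjusted p = 0.0105), MKI67 by 1.76 ± 0.21 (adjusted p = 4.34e-05) and KIF23 by 1.69 ± 0.23 (adjusted p = 0.000134). The place of CENPE rested on few reads, 16, 3 and 33 in the TR11B_KO libraries. Its value was 1.57 without TR11B_KO replicate 2 and 2.88 without replicate 3. MAD2L1 was lower in OGT_KO by a log2 fold change of -1.68 ± 0.27 (adjusted p = 0.000511). The calls also include members not called against NC, among them TTK (1.68 ± 0.36, adjusted p = 0.00315), NUSAP1 (1.31 ± 0.43, adjusted p = 0.0297), KIF11 (0.99 ± 0.34, adjusted p = 0.0355) and CDK1 (0.72 ± 0.22, adjusted p = 0.0241). By contrast CCNB1 (0.66 ± 0.29, adjusted p = 0.0910), CCNB2 (0.45 ± 0.28, adjusted p = 0.232) and KIF2C (0.34 ± 0.21, adjusted p = 0.240), lower in both against NC, did not pass between the knockouts. These 3 values rested on single TR11B_KO libraries: without replicate 2 they were 0.30, 0.19 and 0.07, and without replicate 1 they were 0.96, 0.73 and 0.48, with CCNB1 and CCNB2 then passing (adjusted p = 0.00951 and 0.0358). CDC25C, PLK1, AURKA, BIRC5, CDCA8 and KIF20A, called lower against NC in TR11B_KO alone, did not pass between the knockouts in the main fit either. The smallest adjusted p among them was 0.0643, for AURKA.

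Of the 17 higher calls, 11 held in all 19 alternatives (BUB1, BUB1B, TTK, TPX2, HMMR, DLGAP5, CENPF, KIF23, ECT2, ANLN and MKI67), as did the MAD2L1 call. CENPE was lost without OGT_KO replicate 2 (adjusted p = 0.0683). CDK1 was lost without OGT_KO replicate 1 or 2 or TR11B_KO replicate 3, and NUSAP1 and UBE2C without any OGT_KO replicate or TR11B_KO replicate 3 (adjusted p 0.0565 to 0.0927 for the 3 genes). CDCA3 was lost without NC replicate 1 or 2, OGT_KO replicate 1 or 2 or TR11B_KO replicate 1 or 3, and KIF11 without NC replicate 3, any OGT_KO replicate or TR11B_KO replicate 1 or 3 (0.0512 to 0.135 for both). In a fit of the 2 knockouts only, CDK1, CDCA3, UBE2C, KIF11 and NUSAP1 were not called (adjusted p 0.0697 to 0.109). With RLE scaling CDCA3, UBE2C and KIF11 were not called (0.0529 to 0.0700), with no low-count filter CDCA3 and UBE2C were not (0.0874 and 0.0672), and with the length offset KIF11 was not (0.115). NUSAP1 was 2.01 without TR11B_KO replicate 1 and 0.86 without replicate 2, and KIF11 was 1.59 without replicate 2. The count of higher calls was 11 without OGT_KO replicate 2, where 9.09% of all tested genes were higher.

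The members' OGT_KO fold changes followed gene length and level, as a description. Spearman's rho with the gene length used for FPKM was 0.66 over the 36 members, against 0.07 over all 12574 tested genes, and rho with the mean log2 CPM was -0.61 against -0.29. The 18 shorter members (1224 to 3250 bases) had a median log2 fold change of -0.36 and 4 of them were positive, while the 18 longer ones (3278 to 13228 bases) had 0.42 with 14 positive. Genes of the same lengths had medians of -0.04 and 0.04. In TR11B_KO rho with length was 0.12 over the members and -0.31 over all genes. The members' medians there were -0.67 for the shorter and -0.74 for the longer, against 0.18 and -0.19 for all genes of those lengths. For OGT_KO against TR11B_KO rho with length was 0.55 over the members and 0.33 over all genes. The higher calls there were 13 among the longer members and 4 among the shorter. Both the shorter and the longer members had a higher median than all genes of those lengths. With the offset for gene length, 17 members were higher and 1 lower, where 11.6% and 16.5% of all tested genes were. The members share the libraries, and length and level also go together among them, so their parts were not tested apart.

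**Figure D5:**
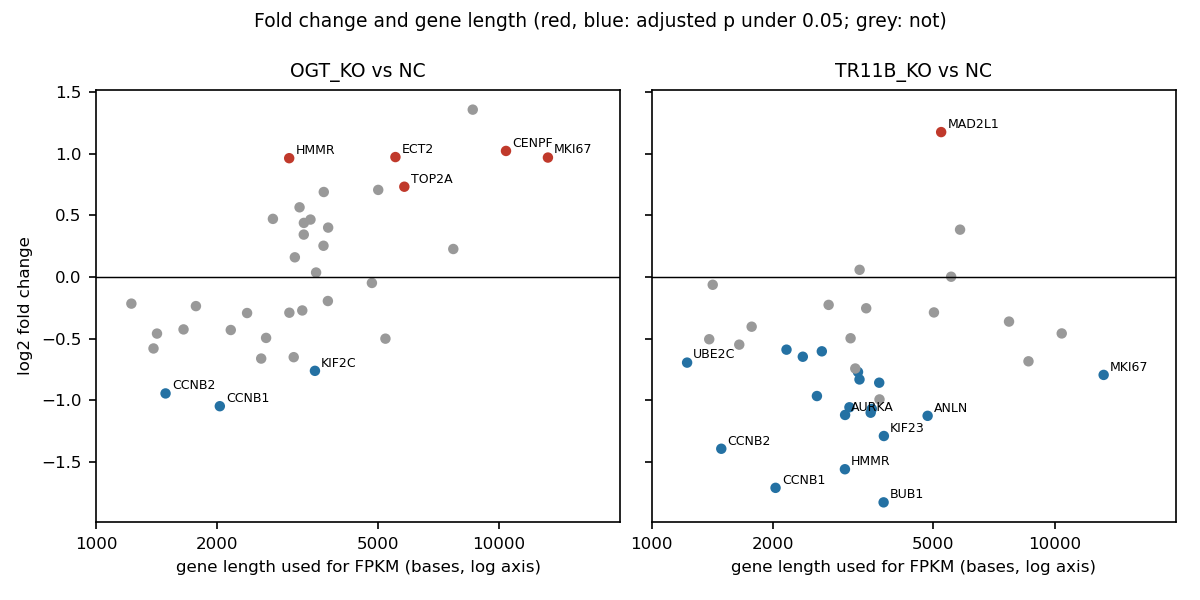
Log2 fold change (y axis) against the gene length used for FPKM (x axis, bases, log scale) for the 36 members, in OGT_KO and in TR11B_KO against NC; red and blue points passed at an adjusted p under 0.05. In OGT_KO the points of the shortest genes lie below 0 and CENPF and MKI67, the longest members called, lie near 1; in TR11B_KO blue points occur among short and long genes.

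The 30 members with a window were also split by the CHR and CCAAT letters in their full windows of 300 bases. In OGT_KO the 19 members with both had 5 higher calls and 1 lower call and a median of 0.34. The other 11 with a window had 0 higher and 2 lower calls and a median of -0.24. In TR11B_KO the same 19 had 1 higher and 9 lower calls and a median of -0.59, and the 11 had 0 higher and 6 lower calls and a median of -0.86. Over all tested genes, 8.26% were higher and 10.1% lower in OGT_KO, and 13.2% and 14.3% in TR11B_KO. These are counts with no test.

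Other genes of the cell cycle were counted by lists, to be read against the shares of all tested genes called, 8.26% higher and 10.1% lower in OGT_KO and 13.2% and 14.3% in TR11B_KO. Of the factors that switch on G2/M genes and the MuvB-DREAM subunits, 5 of 17 fell and 2 rose in TR11B_KO (median -0.40), and 2 fell and 2 rose in OGT_KO (median 0.03). FOXM1, the activator of G2/M transcription, was at 145, 161 and 112 CPM in the NC libraries, 150, 157 and 118 in those of OGT_KO and 55.5, 70.5 and 75.6 in those of TR11B_KO. It was lower in TR11B_KO than in every other library, by a log2 fold change of -1.05 ± 0.19 (adjusted p = 0.00176), and overlapped NC in OGT_KO. RBL1, which encodes the repressor p107, rose by 1.51 ± 0.25 in OGT_KO (adjusted p = 0.00116), and E2F4 fell in both, by 0.83 ± 0.17 in OGT_KO (adjusted p = 0.00506) and 0.69 ± 0.17 in TR11B_KO (adjusted p = 0.00941).

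Other mitotic kinesins and spindle genes were lower in TR11B_KO for 11 of 23, with none higher (median -0.61), and in OGT_KO 5 fell and 3 rose (median -0.11). SPAG5, a spindle and kinetochore protein, fell by 1.98 ± 0.30 in TR11B_KO (adjusted p = 0.000532), and RACGAP1, the partner of KIF23, fell in TR11B_KO by 1.11 ± 0.20 (adjusted p = 0.00138) and in OGT_KO by 0.71 ± 0.19 (adjusted p = 0.0208). Of 29 other kinetochore and checkpoint genes, 5 fell and 3 rose in TR11B_KO (median -0.08), and 1 fell and 1 rose in OGT_KO (median 0.29), with the TR11B_KO counts near the shares of all genes. ZWINT was lower in OGT_KO by -0.67 ± 0.16 (adjusted p = 0.0110) and higher in TR11B_KO by 0.60 ± 0.16 (adjusted p = 0.0140), on the log2 scale.

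Condensin and cohesin, the rings that fold and hold chromatids, rose for 7 of 19 in OGT_KO with none lower (median 0.50), and in TR11B_KO 7 fell and 1 rose (median -0.41). NIPBL, the cohesin loader, rose by 1.52 ± 0.27 in OGT_KO (adjusted p = 0.00213), and ESPL1, the separase that cuts cohesin, fell by 1.34 ± 0.20 in TR11B_KO (adjusted p = 0.000516). Among 17 subunits of the anaphase promoting complex, 4 fell and 2 rose in TR11B_KO and 1 fell in OGT_KO. ANAPC5 fell in OGT_KO by 1.48 ± 0.25 (adjusted p = 0.00132), and ANAPC11 rose in TR11B_KO by 1.31 ± 0.16 (adjusted p = 0.000165). Of 14 genes of CDK1 control, 2 fell and 1 rose in each knockout, CDC25A being lower in both, by 1.00 ± 0.29 (adjusted p = 0.0298) in OGT_KO and 0.98 ± 0.29 (adjusted p = 0.0242) in TR11B_KO as log2 falls.

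For G1/S and replication genes, 8 of 30 fell and none rose in each knockout, with medians of -0.29 in OGT_KO and -0.39 in TR11B_KO. MCM4, a helicase subunit, fell by 1.13 ± 0.20 in OGT_KO (adjusted p = 0.00202) and by 1.08 ± 0.20 in TR11B_KO (adjusted p = 0.00196). Of 16 tested genes of cell cycle exit, 2 rose in OGT_KO and none fell, and in TR11B_KO 4 rose and 1 fell. CDKN1A, the CDK inhibitor p21, rose by 0.84 ± 0.16 in OGT_KO (adjusted p = 0.00273), and MDM2, the ligase for p53, rose by 0.95 ± 0.26 in OGT_KO (adjusted p = 0.0231) and by 1.5 ± 0.27 in TR11B_KO (adjusted p = 0.00140).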

How the data were processed

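RNA of A549 cells was measured in 9 libraries, 3 per group, and groups came from the sample titles. The submitters' processing notes name fastp, HISAT, HTSeq, R 3.2.0, DESeq2 and the build GRCh38, without a role or setting. The sources used here do not say whether counting used strand. The authors deposited whole-number read counts per gene, not normalized. A second table deposited by the authors holds FPKM, that is, counts divided by gene length and library size, and the length they used was recovered from the ratio of both tables.

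Counts were tested with edgeR 4.0.16 in R 4.3.3. After filterByExpr, 12574 genes were left. Libraries were scaled by TMM, and the robust quasi-likelihood test used 1 model with a mean for each group over the 9 libraries. Benjamini-Hochberg adjustment covered every tested gene, and calls needed an adjusted p under 0.05. CPM are TMM-scaled counts per 1e+06. The biological coefficient of variation was 0.241. On data simulated for OGT_KO against NC over 12343 genes, the test found 36 of 100 genes changed by 1 on the log2 scale and 80 of 100 changed by 2, with 6 false calls. Only those genes were changed, a smaller share than was called in the data, and genes of all levels were pooled. The simulated counts therefore do not give the sensitivity of the real comparisons.

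The members and lists were chosen with earlier results of these data known. All members were described by role, and each other list was named by up to 4 called genes with the smallest adjusted p per comparison, of which the text gives some. The 19 alternatives were DESeq2 1.42.0, RLE factors, library totals alone, no filter on low counts, a CPM of 1 or more in 3 libraries, fits of the compared groups only, a replicate block, an offset for gene length, limma 3.58.1 on log2 FPKM plus 1 or 0.1, and each of the 9 libraries left out. Same-numbered libraries did not deviate together (correlations -0.199 to 0.069), and the main fit did not pair them. This cannot show whether same-numbered libraries were handled together.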

Additional observations from a re-analysis of the deposited data

How the results depend on the processing

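Counts are given with the share of all tested genes called in the same setting. The main fit gave 5 higher and 3 lower calls in OGT_KO. DESeq2 gave 5 lower (11.6% of all genes) and library totals alone 1 lower (7.08%). Limma on log2 FPKM plus 1 or plus 0.1 gave 1 lower each (7.05% and 6.76%). With library totals and with limma that 1 lower call was PLK1, which the main fit did not call. CCNB1, CCNB2 and KIF2C were not called in those settings. A fit of only OGT_KO and NC gave 11 higher and 12 lower (19.6% and 22.1%). With the replicate number as a block, 3 were higher and 2 lower in OGT_KO (5.62% and 7.17% of all genes). In TR11B_KO 1 was higher and 17 lower (9.62% and 11.1%), and between the knockouts 15 were higher and 1 lower (14% and 13.1%). Single calls lost with the block were those of CCNB2, HMMR and TOP2A in OGT_KO, CDCA8 and DLGAP5 in TR11B_KO, and CDCA3 and UBE2C between the knockouts. Of the 9 libraries, 0 correlated best with its own number. Leaving out 1 library gave 1 to 8 higher and 0 to 10 lower calls in OGT_KO, where 3.29% to 16.3% and 5.05% to 19.1% of all genes were called. In TR11B_KO it gave 11 to 24 lower (7.45% to 17.2% of all genes). For OGT_KO against TR11B_KO it gave 11 to 21 higher (9.09% to 19.7%) and 1 to 2 lower (9.63% to 21.6%), and DESeq2 gave 2 lower (18.3%). The direction of 11 uncalled values was not stable. In OGT_KO, the log2 fold change of ANLN was 0.0804 with library totals and 0.0327 and 0.0331 with limma (pseudocounts 1 and 0.1), and across left-out libraries it ran from -0.29 to 0.0845, that of TPX2 from -0.0965 to 0.16 and that of PRC1 from -0.0116 to 0.39. In TR11B_KO, NEK2 was -0.10 with library totals and -0.0375 and -0.0766 with limma, with -0.0551 to 0.22 across left-out libraries. ECT2 was -0.17 with library totals, -0.0199 with the block and -0.075 and -0.16 with limma, with -0.15 to 0.27 across left-out libraries. KIF11 ran from -0.88 to 0.0209, CCNA2 from -0.70 to 0.0558 and PTTG1 from -0.13 to 0.12. Between the knockouts, CENPA was 0.16 with library totals, 0.20 with the length offset and 0.19 and 0.22 with limma, with -0.28 to 0.0611 across left-out libraries, CDC20 ran from -0.0556 to 0.40 and BIRC5 from -0.0801 to 0.30. The cause was not tested. MKI67 in TR11B_KO was not called with the length offset (log2 fold change -0.46, adjusted p = 0.0932). CENPE, the member with the fewest reads, had the largest SE of the 36 in each comparison (0.51, 0.55 and 0.54).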
